A study of Mus musculus with 15 samples.

Results

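The comparison set cerebellum of YG8JR mice that had received gene-edited blood stem cells against cerebellum of YG8JR mice that had received the same cells without the nuclease. Its members were chosen by their labels alone: 9 of the 15 bulk RNA sequencing samples of the series, 5 of them labelled mPPL-001 (edited) and 4 labelled mock HSPC. YG8JR is a mouse model of Friedreich ataxia. Donor cells were Sca1+ haematopoietic stem and progenitor cells (HSPCs) from the marrow of YG8JR mice aged 8 to 12 weeks. For mPPL-001 they were electroporated with SpyFi Cas9 nuclease and the guide RNAs UP4 and DN4. For mock HSPC they were electroporated with both guides and no Cas9. Recipients of both kinds were YG8JR mice aged 2.5 to 3.0 months, were irradiated with 7 Gy, received the cells by the tail vein and were given sulphamethoxazole and trimethoprim for 1 month. Tissue was labelled as 6 months after transplant. Genotype, irradiation, infusion, electroporation and antibiotic were therefore common to both groups, and the nuclease was the labelled difference. Host cells that outlived irradiation carried the same YG8JR genotype as the mock cells. The share of edited or donor-derived cells in each animal was not analysed here. Untreated YG8JR samples (n = 3) and wild-type (WT) samples (n = 3), with the same labelled time, entered the statistical model so that all 15 samples shared 1 estimate of the spread. The stated purpose of the series was to evaluate protection of nervous tissue by mPPL-001.

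Friedreich ataxia impairs the mitochondrial assembly of iron-sulphur clusters, the cofactors of respiratory chain complexes and of aconitase. In the cerebellum the disease is known for damage to the dentate nucleus and its connections. Transplanted haematopoietic cells do not become neurons. Their progeny can enter an irradiated brain as macrophages that resemble microglia, and macrophages can present antigen to T cells on major histocompatibility complex (MHC) class II molecules.

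Because the class II genes gave the lowest median of any immune list here, the start regions of H2-Aa and H2-Eb1 are shown. They encode the alpha chain of I-A and the beta chain of I-E. The sequences are from RefSeq on GRCm38.p6, each from 250 bases before the annotated start to 50 after it, read 5′ to 3′ on the gene's strand. H2-Aa lies at chr17:34287774-34288073 on the minus strand and H2-Eb1 at chr17:34305617-34305916 on the plus strand. Capitals mark the letters GCAAC, the core of the class II X box, and TGATTGG, which holds the reversed CCAAT of the Y box.
H2-Aa: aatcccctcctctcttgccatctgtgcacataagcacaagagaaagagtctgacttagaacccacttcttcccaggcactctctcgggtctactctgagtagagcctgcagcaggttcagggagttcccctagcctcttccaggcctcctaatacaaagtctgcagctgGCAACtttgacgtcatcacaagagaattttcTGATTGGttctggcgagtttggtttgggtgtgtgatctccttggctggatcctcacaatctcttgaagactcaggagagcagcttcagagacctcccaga
H2-Eb1: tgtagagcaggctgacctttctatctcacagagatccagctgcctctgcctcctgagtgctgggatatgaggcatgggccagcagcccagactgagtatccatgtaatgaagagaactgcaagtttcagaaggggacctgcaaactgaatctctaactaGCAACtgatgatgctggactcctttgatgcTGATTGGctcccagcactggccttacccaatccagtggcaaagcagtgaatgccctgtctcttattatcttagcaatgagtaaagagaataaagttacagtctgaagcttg
In H2-Aa the first marked base of GCAAC is base 170 and that of TGATTGG is base 201. In H2-Eb1 they are bases 160 and 190, so both genes carry the letters in the same order upstream of the start. On either strand, TGATTGG was found in 2431 of 27025 start regions of that length (9%) and in 6 of the 7 class II genes in the table. GCAAC was found in 10425 (38.6%) and in 5 of those 7. These matches describe letters and not binding.

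Sequencing depth ran from 21572184 to 37719880 counts per mPPL-001 library and from 29064915 to 38760543 per mock HSPC library. The labelled batch split both groups: batch A held mPPL-001 replicates 1, 3 and 4 and mock replicates 2 and 3, and batch B held mPPL-001 replicates 2 and 5 and mock replicates 1 and 4. Among the 9 libraries the first principal component took 62.3% of the variance, with batch A on its negative and batch B on its positive side. All levels below are CPM, counts scaled to a common library total after TMM normalization. Gabra6, a receptor subunit of granule neurons and a defining cerebellar marker, stood at 0.46, 380, 71.9, 0.585 and 206 CPM in mPPL-001 replicates 1 to 5 and at 290, 0.547, 7.39 and 285 CPM in mock replicates 1 to 4. The cerebellar marker was thus nearly absent in mPPL-001 replicates 1 and 4 and in mock replicate 2, which go against their label of cerebellum in this respect. Mock replicate 3 was also low, at 7.39 CPM. No batch A library reached the 206 to 380 CPM of batch B. Summed Y-linked transcripts stood at 222 to 251 CPM in all 5 mPPL-001 libraries, at 222 and 209 CPM in mock replicates 2 and 3, and at 1.63 and 1.00 CPM in mock replicates 1 and 4. In batch B the edit and the level of Y-linked transcripts cannot be told apart. In batch A all 5 libraries had a high Y-linked level. Since no label says that every library is from its own animal, p-values here reflect library-to-library spread, which may be partly technical.

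**Figure D1:**
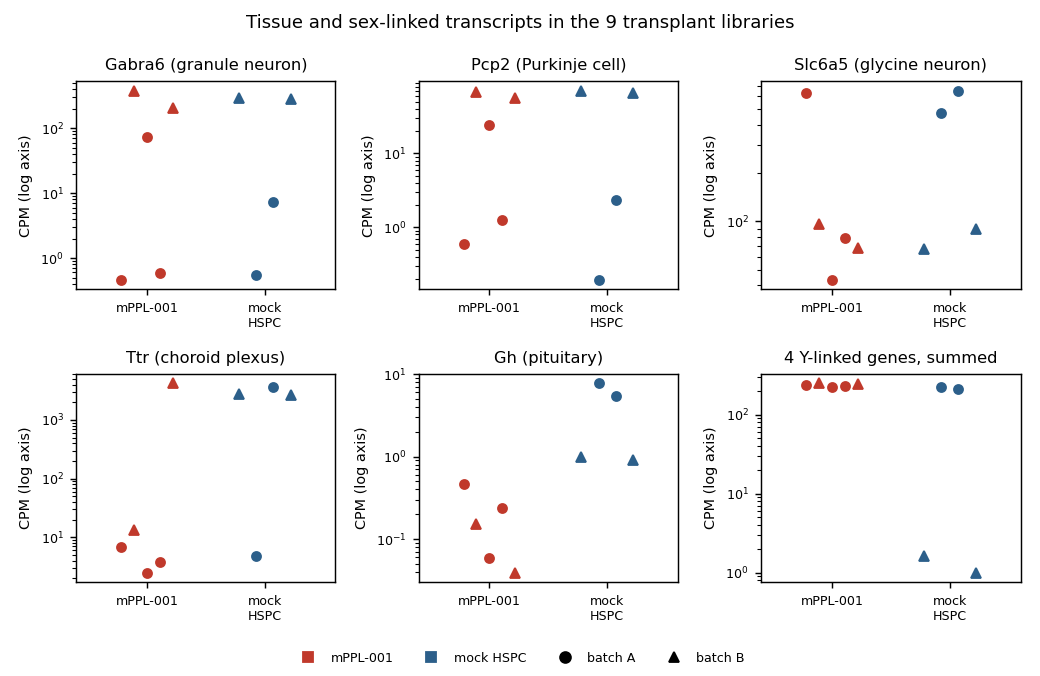
Levels in CPM on log axes of 5 marker genes and of 4 summed Y-linked genes in each mPPL-001 (red, n = 5) and mock HSPC (blue, n = 4) library, with circles for batch A and triangles for batch B. Gabra6 ran from 0.46 to 380 CPM within mPPL-001, and the Y-linked sum was 1.63 CPM or lower in the mock libraries of batch B only.

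No single gene separated edited from mock transplant at the threshold used. By edgeR's quasi-likelihood test with batch in the model and Benjamini-Hochberg adjustment over 24990 genes, 0 genes (0%) were higher and 0 (0%) lower in mPPL-001 at an adjusted p under 0.05, and the smallest adjusted p was 0.999. At an unadjusted p under 0.05, 370 genes (1.48%) were higher and 164 (0.656%) lower, 534 in all (2.14%). The 5 mPPL-001 values lay above all 4 mock values in 115 genes (0.46%) and below them in 66 (0.264%). A test of whether the effect differed between the batches also called 0 genes (0%), with 808 at an unadjusted p under 0.05. DESeq2 with the same design called 0 genes, with 430 higher and 239 lower at an unadjusted p under 0.05.

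The absence of calls came with a stated precision. The median standard error (SE) of a log2 fold change was 0.29 over all genes and 0.20 over the 17837 genes with a mean of at least 1 CPM. For 13667 of those 17837 genes (76.6%) the unadjusted 95% interval lay within a change of 1 on the log2 scale in either direction, and this held for 13997 of all 24990 genes (56.0%). Estimates were above 0 for 14323 genes (57.3%) and below 0 for 10667 (42.7%), with a median log2 fold change of 0.04 (0.07 in batch A and -0.01 in batch B). These are the background for every list below. Edited and mock libraries of the same batch differed about as much as libraries of 1 group did. The root mean square log2 difference in batch A had a median of 0.505 between groups (6 pairs). Within groups it was 0.510 for mPPL-001 (3 pairs) and 0.425 for mock (1 pair). In batch B it was 0.442 between groups (4 pairs), against 0.477 within mPPL-001 and 0.462 within mock (1 pair each).

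**Figure D2:**
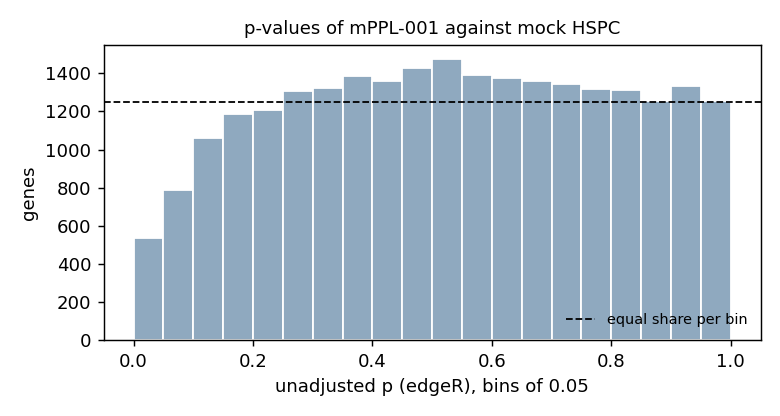
Number of genes (vertical axis) per bin of 0.05 in the unadjusted p of mPPL-001 against mock HSPC, over 24990 genes. The lowest bin holds 534 genes, the fewest of the 20 bins, and the dashed line marks an equal share.

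MHC class II was the immune list with the lowest median in edited mice, and its members did not pass the test. Of 8 measured members 7 were lower and 1 higher, 0 were called, and 3 had an unadjusted p under 0.05, all lower. The median log2 fold change was -0.67 (-0.47 in batch A, -0.86 in batch B), against 0.04 over all genes. H2-Aa stood at 2.84, 2.52, 3.84, 2.75 and 6.75 CPM in mPPL-001 replicates 1 to 5, at 6.54, 5.02, 6.29 and 14.8 CPM in mock replicates 1 to 4, and at 2.51, 2.6 and 1.7 CPM in untreated YG8JR. Mock replicate 4 was the highest library, and only mPPL-001 replicate 5 reached into the mock range. The means were 3.74 ± 1.76 CPM (SD, n = 5) and 8.17 ± 4.49 CPM (SD, n = 4). The log2 fold change was -1.06 (SE 0.34, unadjusted p = 0.00786, adjusted p = 0.999 by edgeR). Within batch A, where all libraries had a high Y-linked level, the log2 fold change was -0.84, and within batch B it was -1.21.

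The other chains and the invariant chain had the same highest libraries. H2-Eb1 was 2.34, 2.98, 2.91, 3.89 and 6.08 CPM in mPPL-001 and 5.88, 4.61, 4.98 and 14.1 CPM in mock, a log2 fold change of -0.96 (SE 0.37, unadjusted p = 0.0205, adjusted p = 0.999 by edgeR). Cd74, the invariant chain that escorts class II molecules to the endosome, was 7.73, 5.44, 7.34, 8.29 and 15.5 CPM against 14.6, 10.5, 12.7 and 32.1 CPM, a log2 fold change of -0.92 (SE 0.39). H2-Ab1, the beta chain of I-A, was 2.97, 3.13, 4.08, 3.68 and 6.48 CPM against 5.43, 4.77, 4.56 and 13.4 CPM, a log2 fold change of -0.76 (SE 0.40). For H2-Ab1, H2-Eb1 and Cd74, as for H2-Aa, replicate 5 was the highest mPPL-001 library and replicate 4 the highest mock library. H2-DMa and H2-DMb1, the chains of the peptide exchange factor, had log2 fold changes of -0.05 (SE 0.20; 0.06 within batch A) and -0.56 (SE 0.34), and Ciita, the transactivator of the class II genes, one of 0.31 (SE 0.41; -0.39 within batch B).

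A single mock library carried much of the size of this difference. Without mock replicate 4 the list median was -0.40, and the log2 fold changes were -0.70 for H2-Aa, -0.52 for H2-Eb1, -0.52 for Cd74 and -0.27 for H2-Ab1. With a choroid plexus score as covariate, the list median was -0.46 and H2-Aa was at -0.70. Summed over the list, class II transcripts were 21.6 to 45.0 CPM in mPPL-001, 37.8 to 86.0 CPM in mock and 22.8 to 25.6 CPM in untreated YG8JR. In bulk RNA, fewer cells of a type and less RNA per cell cannot be told apart.

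**Figure D3:**
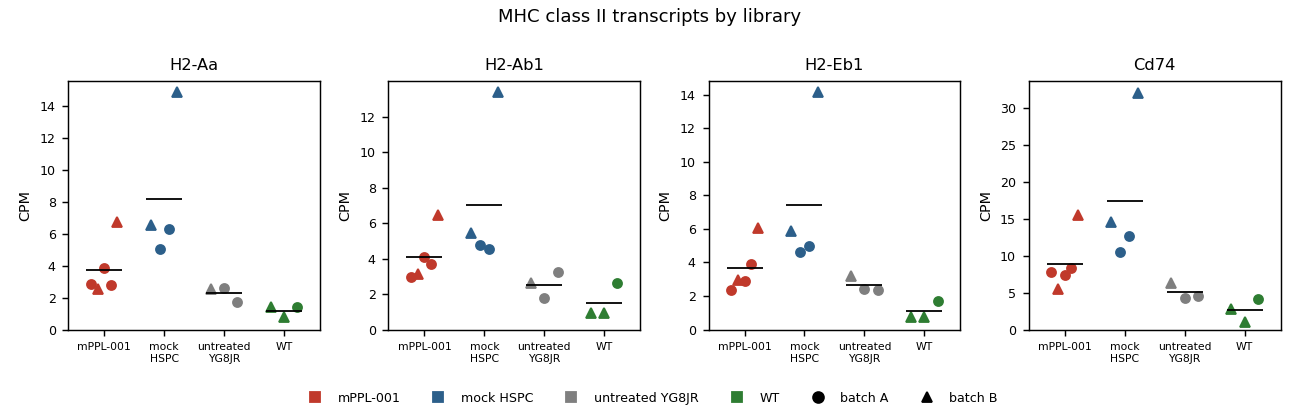
Levels in CPM of H2-Aa, H2-Ab1, H2-Eb1 and Cd74 in every library of the 4 groups, with circles for batch A, triangles for batch B and bars for group means. Mock replicate 4 is the highest library in each panel, and mPPL-001 replicate 5 is the highest of its group.

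The other antigen presentation and interferon lists lay slightly below 0. All 16 members of MHC class I presentation were lower, with 0 called and a median of -0.20 (-0.17 in batch A, -0.31 in batch B). H2-K1, a class I heavy chain, was 37.2, 34.4, 35.3, 26.0 and 36.2 CPM in mPPL-001 and 38.8, 45.8, 33.5 and 57.9 CPM in mock, a log2 fold change of -0.37 (SE 0.17). The ranges overlap through mock replicate 3. Of 36 type I interferon response genes 32 were lower, with a median of -0.16 (-0.06 in batch A, -0.42 in batch B), and of 16 interferon-gamma inducible GTPases 14 were lower, with a median of -0.27. Ifih1, a cytosolic sensor of double-stranded RNA, had means of 13.04 ± 2.74 CPM (SD, n = 5) and 16.0 ± 3.4 CPM (SD, n = 4), and Ddx58, the sensor RIG-I, of 11.5 ± 0.998 and 15.4 ± 3.98 CPM. In each of these genes mock replicate 4 was the highest library. Iigp1, a GTPase that attacks the vacuoles of parasites, ran from 2.55 to 5.34 CPM in mPPL-001 and from 2.9 to 11.0 CPM in mock. None of these lists had a member with an unadjusted p under 0.05.

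Microglial and macrophage transcripts did not separate edited from mock animals. Of 25 homeostatic microglia genes 22 were lower and 3 higher, with a median of -0.18. Cx3cr1, the fractalkine receptor of microglia, was 28.8, 19.6, 27.5, 30.1 and 20.6 CPM in mPPL-001 and 16.5, 37.3, 33.5 and 24.5 CPM in mock, with fully overlapping ranges. Slc2a5, a fructose transporter of microglia, had a log2 fold change of -0.66 (SE 0.34). Of 24 disease-associated microglia genes 19 were lower, with a median of -0.11, and 1 had an unadjusted p under 0.05. That gene, Ch25h, which makes 25-hydroxycholesterol, was 0.502, 0.365, 0.32, 0.206 and 0.353 CPM in mPPL-001 and 0.719, 3.19, 0.391 and 0.943 CPM in mock. Its log2 fold change of -1.89 (SE 0.75) became -0.88 without mock replicate 2. Spp1, osteopontin, had a log2 fold change of -0.69 (SE 0.51), with 59.0 ± 21.1 CPM (SD, n = 5) against 101 ± 54.8 CPM (SD, n = 4).

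Genes of macrophages that enter from marrow or line the brain's borders gave 0 calls. Of 23 measured members 9 were higher and 14 lower, with a median of -0.09 and estimates from -1.06 to 0.55. Those at an unadjusted p under 0.05 were 2 of the class II genes given above, H2-Aa and Cd74, which the list shares. The sum of the list was 135 to 222 CPM in mPPL-001, 141 to 241 CPM in mock and 109 to 117 CPM in untreated YG8JR. Ms4a7, a membrane protein of these macrophages with the highest estimate of the list, was 2.22, 1.95, 1.05, 2.13 and 2.67 CPM in mPPL-001 and 2.06, 1.03, 1.07 and 1.49 CPM in mock, a log2 fold change of 0.55 (SE 0.31, unadjusted p = 0.103 by edgeR). Every transplanted library stood above the untreated ones, which were at 0.328 to 0.492 CPM. Cybb, the catalytic subunit of the phagocyte oxidase and not a member of that list, had a log2 fold change of 0.31 (SE 0.21), with 6.94 ± 2.73 CPM (SD, n = 5) against 5.87 ± 2.33 CPM (SD, n = 4). Of the 6 phagocyte oxidase genes 3 were higher and 3 lower, with a median of -0.02 and estimates from -0.21 to 0.31. That median was 0.22 in batch A and -0.24 in batch B.

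Complement and cytokine genes gave no call. Of 17 complement genes 14 were lower, with a median of -0.29 (-0.25 in batch A, -0.26 in batch B) and estimates from -0.72 to 0.31. Of 22 genes of cytokines, NF-kappaB and the inflammasome 17 were lower, with a median of -0.15, estimates from -1.55 to 0.33 and 2 at an unadjusted p under 0.05. Tlr4, the receptor for bacterial lipopolysaccharide, was 4.97, 5.02, 5.24, 4.75 and 5.61 CPM in mPPL-001 and 10.1, 6.22, 5.44 and 9.98 CPM in mock, a log2 fold change of -0.60 (SE 0.23, unadjusted p = 0.0218 by edgeR). The high mock values were those of batch B, where the log2 fold change was -0.92 against -0.22 in batch A. The lists of lymphocytes and neutrophils rested on few measured genes: 9 of 19 for T and NK cells, 4 of 10 for B and plasma cells and 6 of 13 for neutrophils and monocytes, and 0 members were called. The B and plasma cell median was the highest of the immune lists, at 0.64 (1.17 in batch A, 0.76 in batch B). It ran from 0.38 to 1.12 as each library was left out. Summed over that list, levels were 45.8, 7.48, 43.1, 48.7 and 16.0 CPM in mPPL-001 and 3.33, 40.0, 45.1 and 11.0 CPM in mock. Untreated YG8JR replicate 1, of batch B, was at 5.37 CPM, and replicates 2 and 3, of batch A, at 48.8 and 42.3 CPM. The sum thus followed the batch in transplanted and untreated mice alike. Whether its genes mark lymphocytes here was not tested. The T and NK cell median was 0.18, with 1 gene higher at an unadjusted p under 0.05. Its list summed to 352 to 434 CPM in mPPL-001, 350 to 544 CPM in mock and 377 to 561 CPM in untreated YG8JR. The sum was thus as high without a transplant, and whether the T and NK genes mark lymphocytes here was not tested either. The neutrophil and monocyte median was -0.29, with -0.96 in batch A and 1.46 in batch B.

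**Figure D4:**
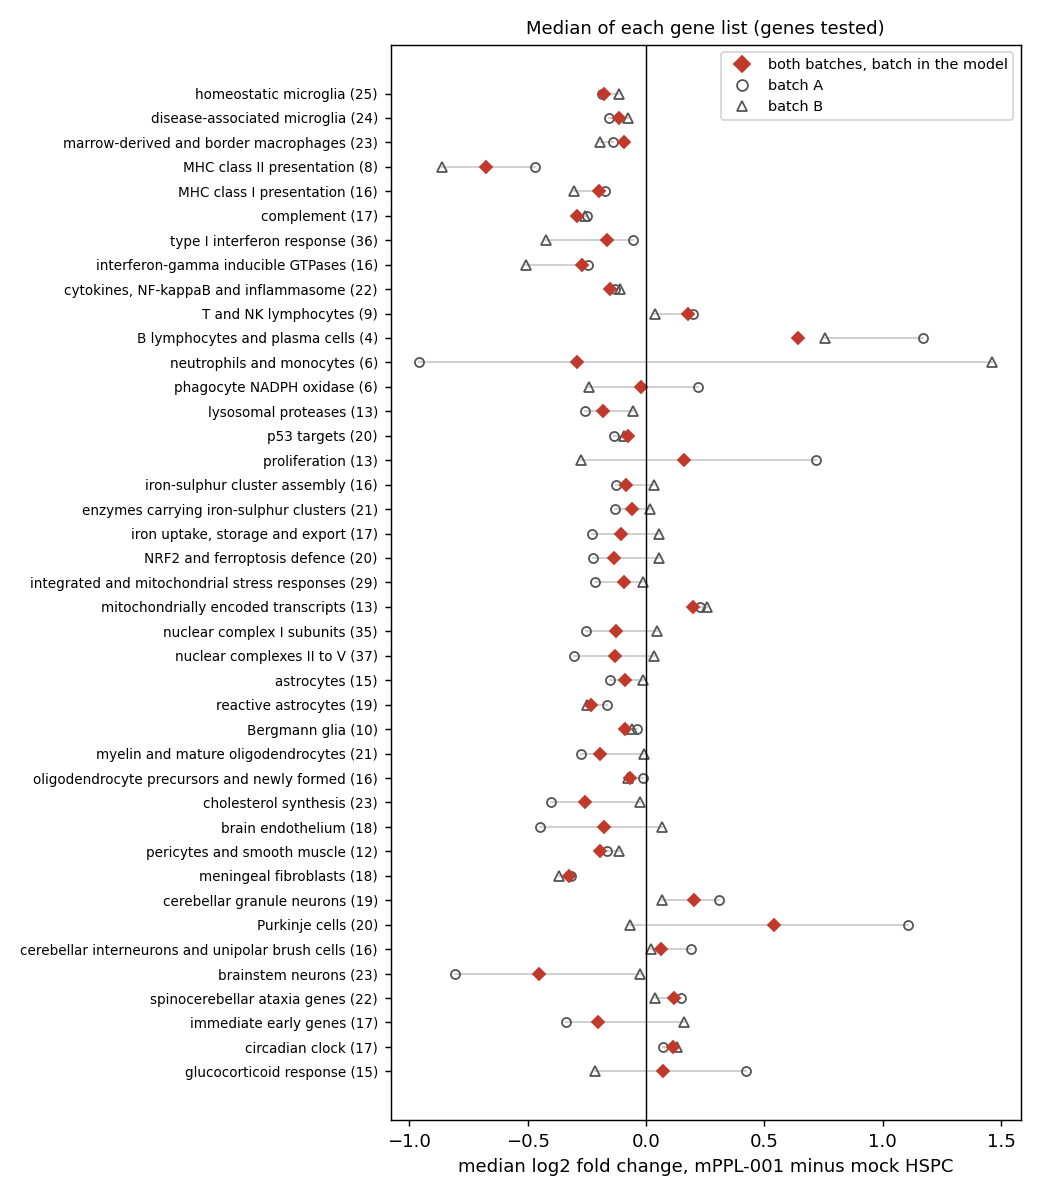
Median log2 fold change of mPPL-001 against mock HSPC over the measured genes of each list (number in brackets) for the model over both batches (red diamonds) and within batch A (circles) and batch B (triangles). MHC class II has the lowest median of the lists shown (-0.67), and the Purkinje list is at 1.11 in batch A and -0.07 in batch B.

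Iron-sulphur and iron genes, the pathway of the disease, had medians near 0. Of 16 measured iron-sulphur assembly genes 4 were higher and 12 lower, 0 had an unadjusted p under 0.05, the estimates ran from -0.33 to 0.21 and the median was -0.09 (-0.13 in batch A, 0.03 in batch B). Nfs1, the cysteine desulfurase that supplies the sulphur, was 20.4, 21.99, 19.1, 19.8 and 24.7 CPM in mPPL-001 and 26.7, 22.8, 20.9 and 25.1 CPM in mock. Its log2 fold change was -0.15 with an unadjusted 95% interval of -0.34 to 0.04. Iscu, the scaffold on which clusters are built, was at -0.33 (-0.82 to 0.16), and Fdxr, the reductase that feeds electrons to assembly, at 0.18 (-0.16 to 0.53). Of 21 enzymes that carry clusters 14 were lower, with a median of -0.06 and estimates from -0.23 to 0.35. Of 17 genes of iron uptake, storage and export 11 were lower, with a median of -0.11 (-0.23 in batch A, 0.05 in batch B). Trf, the iron carrier transferrin, had a log2 fold change of -0.45 (-0.69 in batch A, -0.14 in batch B).

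Respiratory chain transcripts of nuclear origin were lower in batch A and not in batch B, and 0 members were called. Of 35 complex I subunits 32 were lower, with a median of -0.13, and in batch A 33 were lower (median -0.25) against 8 in batch B (median 0.05). Of 37 subunits of complexes II to V 34 were lower, with a median of -0.13 (-0.30 in batch A, 0.03 in batch B). Ndufb4 of complex I was at -0.30 (SE 0.18). Ribosomal protein genes lay on the same side in batch A, with 25 of 25 lower (median -0.14) against 11 of 25 in batch B. Transcripts encoded in the mitochondrial genome lay on the other side: 12 of 13 were higher, with a median of 0.20 (0.23 in batch A, 0.26 in batch B). mt-Atp8, an ATP synthase subunit, was 18.6, 11.5, 7.86, 12.3 and 15.9 CPM in mPPL-001 and 14.5, 6.34, 10.8 and 2.54 CPM in mock, with overlapping ranges and a log2 fold change of 0.64 (SE 0.41). Mitochondrially encoded genes made up 2.88% to 5.59% of counts in mPPL-001, highest in replicate 1, and 3.08% to 3.62% in mock. With the Y-linked level as covariate their median was 0.02.

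Stress programmes showed small negative medians, mainly in batch A. Of 20 NRF2 and ferroptosis defence genes 17 were lower, with a median of -0.13. In batch A 18 were lower (median -0.23), against 8 in batch B (median 0.06). Nfe2l2, which encodes NRF2 itself, was at -0.22 (SE 0.12). Of 29 genes of the integrated and mitochondrial stress responses 24 were lower, with a median of -0.09 (-0.21 in batch A, -0.01 in batch B). In 2 of them, Nupr1 and Chac1, the ranges did not overlap, where 0.264% of all genes lay lower in that way. Chac1, which degrades glutathione, had a log2 fold change of -0.20 (SE 0.21). Nupr1, a stress-induced chromatin protein, was 5.27, 4.23, 5.21, 4.58 and 4.28 CPM in mPPL-001 and 6.77, 5.8, 6.29 and 6.0 CPM in mock. Every mPPL-001 library lay below every mock library, with a log2 fold change of -0.41 (SE 0.24, unadjusted p = 0.107 by edgeR). Mthfd2, a mitochondrial folate enzyme induced by ATF4, was 23.2, 16.0, 16.4, 15.7 and 15.5 CPM against 25.3, 21.2, 19.3 and 22.04 CPM, and mPPL-001 replicate 1 reached into the mock range. Gdf15, a stress hormone, had a log2 fold change of -0.65 (SE 0.39).

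Astrocytes, oligodendrocytes and vessels gave no called gene. Of 15 astrocyte genes 9 were lower (median -0.09), and of 19 genes of reactive astrocytes 17 were lower (median -0.23). Of 21 myelin genes 20 were lower, with a median of -0.19, which was -0.27 in batch A and -0.01 in batch B. Ugt8a, the enzyme of myelin galactolipid synthesis, had a log2 fold change of -0.45 (SE 0.21). Cholesterol synthesis followed the same split by batch, with 22 of 23 genes lower, a median of -0.26, -0.40 in batch A and -0.03 in batch B. Cyp51, lanosterol demethylase, was 62.2, 42.2, 60.5, 75.2 and 45.8 CPM in mPPL-001 and 43.2, 91.2, 99.3 and 60.1 CPM in mock, a log2 fold change of -0.40 (SE 0.15, unadjusted p = 0.0178 by edgeR). Within batch A the mPPL-001 values lay below both mock values, and in batch B they overlapped. The brainstem list differed in the same direction between the groups of batch A, as given below. Adding a score for brain region to the model put the myelin median at -0.07 and that of cholesterol synthesis at -0.14. Whether region accounts for these differences was not tested.

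Endothelial genes were also lower mainly in batch A, with 16 of 18 lower and a median of -0.18 (-0.45 in batch A, 0.07 in batch B). Emcn, the sialomucin endomucin of venous and capillary endothelium, was 5.23, 5.17, 6.12, 5.16 and 5.14 CPM in mPPL-001 and 6.41, 10.7, 7.69 and 6.83 CPM in mock. Every mPPL-001 library lay below every mock library, with a log2 fold change of -0.57 (SE 0.25, unadjusted p = 0.0408 by edgeR) and -0.74 and -0.36 within batches A and B. Untreated YG8JR was at 7.08, 10.7 and 7.56 CPM. Ocln, the tight junction protein occludin, had a log2 fold change of -0.34 (SE 0.15). All 18 genes of meningeal fibroblasts were lower, with a median of -0.33 (-0.32 in batch A, -0.37 in batch B), and 0 had an unadjusted p under 0.05. Igfbp2, a growth factor binding protein, ran from 10.9 to 90.0 CPM in mPPL-001 and from 34.2 to 96.9 CPM in mock.

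Neuronal lists followed the batch and single libraries, and 0 members were called. All 20 Purkinje cell genes were higher in mPPL-001, with a median of 0.54. The median was 1.11 in batch A and -0.07 in batch B, and without mPPL-001 replicate 3 it was -0.17. With the region score as covariate it was -0.07. Pcp2, a Purkinje cell marker, was 0.585, 67.7, 24.4, 1.24 and 56.6 CPM in mPPL-001 and 71.0, 0.193, 2.31 and 65.7 CPM in mock, so that mPPL-001 replicate 3 stood apart from the rest of batch A. Of 19 granule neuron genes 15 were higher, with a median of 0.20, which ran from -0.32 to 0.32 as each library was left out and was -0.24 with the region score. For Gabra6 the log2 fold change was 1.60 with an SE of 1.33, and it ran from -0.80 to 2.02 as each library was left out. Of 23 brainstem neuron genes 18 were lower, with a median of -0.45 (-0.81 in batch A, -0.02 in batch B), which ran from -0.78 to 0.00 as each library was left out. Slc6a5, which carries glycine into inhibitory neurons of the brainstem and deep nuclei, was 631, 96.7, 43.2, 79.5 and 68.6 CPM in mPPL-001 and 67.4, 473, 653 and 90.1 CPM in mock. It was thus high in 1 of 3 edited and 2 of 2 mock libraries of batch A.

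Tissue that adjoins the cerebellum entered the libraries unevenly. All 19 choroid plexus genes were lower in mPPL-001, with a median of -1.41 (-3.57 in batch A, -0.33 in batch B), and 0 had an unadjusted p under 0.05. Cldn2, a claudin of the choroid plexus epithelium, was 0.125, 1.19, 0.612, 0.344 and 25.1 CPM in mPPL-001 and 17.7, 0.419, 18.8 and 15.8 CPM in mock. It was high in 1 of 5 edited and 3 of 4 mock libraries, and the list median was -4.07 without mPPL-001 replicate 5 and -0.64 without mock replicate 3. All 15 measured Hox genes, which mark hindbrain and spinal cord behind the cerebellum, were lower, with a median of -0.80, which was 0.63 in batch B and -3.12 without mPPL-001 replicate 1. Summed Hox transcripts were 70.4, 0.76, 0.816, 4.37 and 1.77 CPM in mPPL-001 and 0.36, 28.2, 77.7 and 0.686 CPM in mock. In batch A both mock libraries and 1 of 3 edited libraries were high.

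Pituitary hormone transcripts, of which 4 of 9 were measured, had the lowest median of all 50 lists (-4.23). The median was -4.94 in batch A and -2.23 in batch B. Of the 4 measured genes 3 were lower and 1 was higher, with estimates from -6.89 to 0.19 and 0 called. Gh, growth hormone, was 0.46, 0.152, 0.0583, 0.241 and 0.0392 CPM in mPPL-001 and 0.981, 7.79, 5.44 and 0.915 CPM in mock. Every mPPL-001 library lay below every mock library, with a log2 fold change of -4.91 (SE 1.09, unadjusted p = 0.000432, adjusted p = 0.999 by edgeR). Behind these values stood 26 counts over the 5 mPPL-001 libraries and 471 over the 4 mock libraries. Prl, prolactin, had 2 counts, both in mPPL-001 replicate 1, against 126 counts over all 4 mock libraries. Pomc, the precursor of corticotropin, had 131 counts against 2362, and its levels overlapped through mock replicate 4. Untreated YG8JR libraries held 0.239, 7.87 and 41.2 CPM of Gh, so the range within that group was wider than the difference between the transplants.

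Rln3, relaxin-3, a neuropeptide known from the nucleus incertus of the brainstem, had the smallest p of the genes named here. It was 0.125, 0.0608, 0.291, 0.413 and 0 CPM in mPPL-001 and 0.0654, 10.3, 21.1 and 3.32 CPM in mock, with 27 counts in all against 1086. Mock replicate 1 was as low as the edited libraries, while the other 3 mock libraries lay above all 5. The log2 fold change was -6.18 (SE 1.26, unadjusted p = 0.000223, adjusted p = 0.999 by edgeR). All 3 untreated YG8JR libraries were low, at 0.119, 0.164 and 0.0586 CPM. The WT libraries were at 0.21, 0 and 32.6 CPM, so a library without a transplant held the highest level of all.

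Among the 10 genes of lowest p on the lower side, 5 had ranges that did not overlap, namely Gh, Slc22a18, Cped1, Nr2f1 and Uts2b. Over all genes 0.264% lay lower in that way, but these 10 were picked by their p in the same data. Slc22a18, a transporter from an imprinted cluster, was 0.585, 0.517, 0.408, 0.654 and 0.628 CPM in mPPL-001 and 1.21, 1.38, 1.14 and 1.57 CPM in mock, a log2 fold change of -1.27 (SE 0.36) that was -1.20 and -1.28 within batches A and B. Untreated YG8JR was at 0.567, 1.09 and 0.352 CPM and WT at 0.454, 0.402 and 0.879 CPM, all below the mock values. Nr2f1, the nuclear receptor COUP-TFI, was 16.1, 19.9, 20.0, 18.9 and 22.5 CPM against 35.6, 23.2, 22.7 and 30.8 CPM, with the higher mock values in batch B. Cped1 was at 7.23 ± 1.16 CPM (SD, n = 5) against 11.2 ± 1.38 CPM (SD, n = 4), a log2 fold change of -0.63 (SE 0.18). Uts2b, a urotensin peptide, was at -2.66 (SE 0.79). Itgb3, integrin beta 3, was 5.14, 1.64, 4.08, 4.27 and 2.47 CPM against 2.75, 7.73, 8.18 and 3.89 CPM. Within each batch all its mPPL-001 values lay below both mock values, with log2 fold changes of -0.82 in batch A and -0.69 in batch B. Slc38a5, a glutamine transporter, and Ddr2, a collagen receptor, completed the set at -1.16 (SE 0.36) and -0.66 (SE 0.21), with Pomc at -3.55 (SE 1.08).

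Over all genes 0.46% lay higher without overlap. Among the 10 of lowest p on the higher side, likewise picked in these data, only Mir124-2hg had ranges that did not overlap. This host transcript of the neuronal microRNA miR-124 was 77.1, 60.4, 91.1, 96.0 and 63.9 CPM in mPPL-001 and 43.4, 59.6, 56.8 and 44.0 CPM in mock, a log2 fold change of 0.56 (SE 0.18), and 0.60 and 0.51 within batches A and B. R3hdm4 had the smallest p on this side, with a log2 fold change of 0.39 (SE 0.11, unadjusted p = 0.00264, adjusted p = 0.999 by edgeR) and 0.41 and 0.37 within the batches. Bc1, a small noncoding RNA of dendrites, was 148, 29.6, 99.2, 134 and 37.6 CPM against 34.9, 37.0, 60.0 and 11.5 CPM. Its high values were the 3 edited libraries of batch A. Ankrd63 was 0.125, 1.03, 3.67, 4.3 and 4.04 CPM against 0.0654, 0, 0.293 and 0.2 CPM, with 391 counts against 18, and mPPL-001 replicate 1 lay within the mock range. The WT libraries were at 4.16, 0 and 0.266 CPM of Ankrd63, so a library without a transplant reached the level of the high edited ones. Nr2e1, an orphan nuclear receptor of neural stem cells, was at 0.0418, 0.0912, 2.07, 4.03 and 0.589 CPM against 0.0286 to 0.13 CPM, high in 3 of 5 edited libraries. In WT it was at 1.22, 0 and 0.4 CPM. Glra4 encodes a glycine receptor subunit, Elk1 a transcription factor of the ETS family, Dscaml1 an adhesion molecule and Traip a ubiquitin ligase of DNA replication. Together with Ccdc28b they had log2 fold changes of 0.40 to 1.62, with overlapping ranges.

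**Figure D5:**
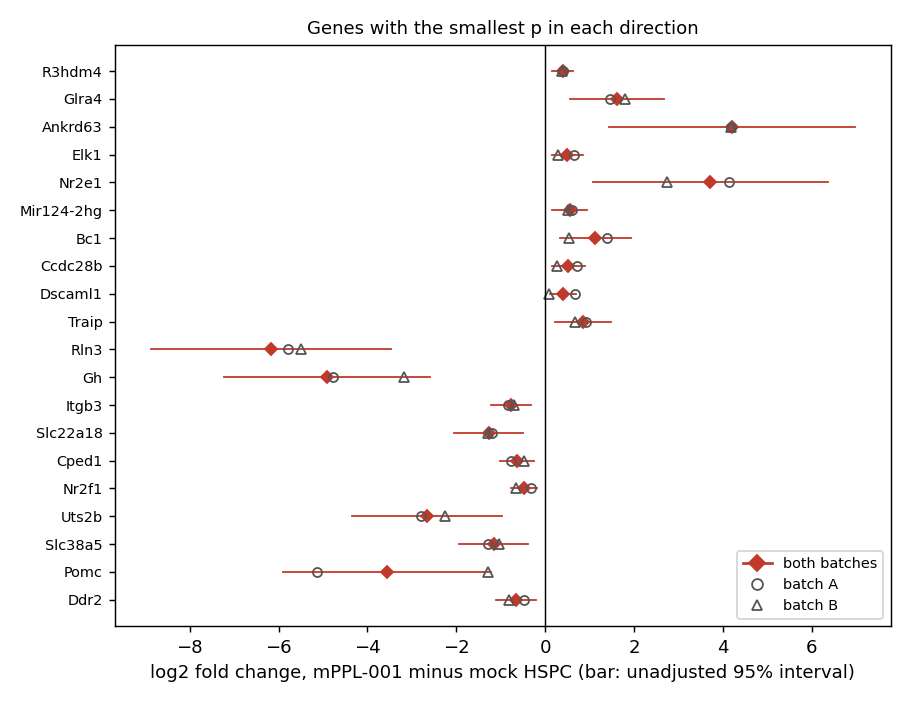
Log2 fold change of mPPL-001 against mock HSPC for the 10 genes of smallest p on each side (red diamonds, with bars for the unadjusted 95% interval) and the values within batch A (circles) and batch B (triangles). None passed the adjusted threshold, and Rln3 (-6.18) and Ankrd63 (4.22) are the lowest and highest estimates.

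Irradiation was common to both groups, and genes it is known to affect did not separate them. Of 20 p53 targets 15 were lower, with a median of -0.08 and 0 at an unadjusted p under 0.05. Pmaip1, the p53-induced death protein NOXA, was 2.72, 3.65, 4.22, 3.3 and 2.59 CPM in mPPL-001 and 4.22, 4.96, 4.89 and 4.86 CPM in mock, a log2 fold change of -0.57 (SE 0.35). The groups met at mPPL-001 replicate 3 and mock replicate 1. Eda2r, a p53-induced receptor, was at -0.52 (SE 0.33). Of 13 proliferation genes 9 were higher, with a median of 0.16 (0.72 in batch A, -0.27 in batch B). Nusap1, a spindle protein, was 7.36, 7.79, 6.44, 6.99 and 5.57 CPM against 5.65, 5.57, 4.43 and 5.75 CPM, a log2 fold change of 0.33 (SE 0.18).

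Satellite-like predicted genes gave 0 calls between edited and mock mice. Their sum was 419 to 1801 CPM in mPPL-001, 767 to 1077 CPM in mock and 49.1 to 89.7 CPM in untreated YG8JR, and the difference from untreated mice was not tested here. Of 13 measured members 10 were lower in mPPL-001, with a median of -0.33 (0.11 in batch A, -0.93 in batch B). Gm10718 was 51.3, 14.96, 48.4, 36.0 and 18.1 CPM in mPPL-001, 30.5, 48.1, 49.7 and 36.8 CPM in mock and 1.73, 1.91 and 3.43 CPM in untreated YG8JR. Every transplanted library stood above every untreated one for this gene, and the lower edited values were those of batch B. Gm10722 had a log2 fold change of -0.05 in batch A and -2.21 in batch B. That difference between batches had an unadjusted p of 0.00691 and an adjusted p of 0.982 by edgeR. Over both batches Gm10718 and Gm10722 were lower at an unadjusted p of 0.0258 and 0.0259 by edgeR, each with an adjusted p of 0.999. Reads of such repeats map to many near-identical copies, so the level of a single member is uncertain. Nuclear long noncoding RNAs were higher in 9 of 9 members, with a median of 0.38, 0.59 in batch A and -0.02 in batch B. Miat was 144, 4.59, 56.2, 117 and 17.4 CPM against 4.25, 80.7, 53.2 and 8.58 CPM and so followed the batch.

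Across all 50 lists 38 medians were negative and 12 positive, where 42.7% of genes had a negative estimate. The highest median, 2.39, was that of a list among those on RNA quality and sex. In 23 lists the median was negative within both batches, in 8 it was positive within both, and in 19 the batches had opposite signs. Of the 14 immune lists 12 had a negative median, 10 of them within both batches. The lists share genes and libraries. Most mock libraries held choroid plexus transcripts that most edited libraries lacked. With the choroid plexus score as covariate 32 list medians were negative and 18 positive. That fit put the median at 0.03 for myelin, 0.01 for disease-associated microglia and 0.01 for lysosomal proteases (-0.18 without the covariate), and that of MHC class I at -0.19. Choroid plexus content was uneven between the groups, and its part in these medians was not tested.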

How the data were processed

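Flash-frozen cerebellum gave the RNA, which was ribodepleted, made into stranded libraries and sequenced from both ends, per the labels' protocols. The deposited table holds raw counts of reads per gene, not normalized, for 55488 identifiers. STAR and the build GRCm39 are named in the submitters' processing notes. How reads were counted, and whether by strand, is not given in the sources used here, so overlapping, antisense and near-identical genes cannot be told apart with certainty. Identifiers were matched to symbols in GENCODE for GRCm38 (55141 matched, 99.4%), and no gene coordinates were taken from it. Promoters came from RefSeq.

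CPM used TMM-scaled library sizes. Groups were compared with the quasi-likelihood test of edgeR 4.0.16 in R 4.3.3 (robust), with a mean per group and a batch term over all 15 libraries, after edgeR's filter (minimum count 10, minimum total 15), with Benjamini-Hochberg adjustment over 24990 genes. Within-batch values came from a model with a mean per group and batch. No list was tested. The smallest chi-square per gene between libraries of 1 group was 20.6, so none was counted as a copy. Alternatives were RLE scaling, 2 other filters, DESeq2 1.42.0, no batch term, the replicate block, other sets of libraries, covariates for Y-linked level, region and choroid plexus, limma 3.58.1 with voom weights, and each library left out. The region score is the mean log2 CPM of granule and Purkinje genes less that of brainstem genes. Fits without WT replicate 3 or 2 were added after seeing the data. The main test was also run on simulated counts, drawn for each gene independently around group and batch means. That check did not include tissue or sex-linked differences shared by many genes of a library.

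The comparison and the 50 lists were chosen with earlier results of these data known. Named genes were the 10 of smallest p on each side whose higher group averaged 1 CPM or more. Predicted genes with only a placeholder name were left out of these. Up to 4 members of a list were named by the same measures. The satellite-like list was described as a group, and the Y-linked list by its summed level. Gabra6, Pcp2 and Slc6a5 were fixed markers. H2-DMa, H2-DMb1, Ciita and Chac1 were named outside that rule, after their values were seen. Some genes are left out and not reported here.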

Additional observations from a re-analysis of the deposited data

Results flagged for a closer look

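Single libraries stood apart from the rest of their group in 14 of 166 combinations of gene and group examined. The cut-off marks about 1 in 20 among independent, normally distributed values. That rate is no measure of chance here, because many of the genes were picked in these data and each group spans both batches. In mock replicate 4, H2-Ab1 was 13.4 CPM against 4.56 to 5.43 CPM in the other mock libraries, Ifih1 was 21.1 CPM against 13.9 to 14.6 CPM, and Gm10722 was 41.8 CPM against 17.4 to 19.9 CPM. In mPPL-001 replicate 1, which had the highest share of mitochondrial transcripts, Spp1 was 96.4 CPM against 46.7 to 53.9 CPM, Mthfd2 was 23.2 CPM against 15.5 to 16.4 CPM and Eif2s3y, a Y-linked gene, was 48.2 CPM against 36.5 to 38.9 CPM. In the same library Prl was 0.0836 CPM against 0 in the other 4.

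Cldn2 was 25.1 CPM in mPPL-001 replicate 5 against 0.125 to 1.19 CPM, and 0.419 CPM in mock replicate 2 against 15.8 to 18.8 CPM. H2-K1 was 26.0 CPM in mPPL-001 replicate 4 against 34.4 to 37.2 CPM, and in the same library Chac1 was 7.30 CPM against 9.03 to 9.32 CPM. Emcn was 6.12 CPM in mPPL-001 replicate 3 against 5.14 to 5.23 CPM. Pmaip1 was 4.22 CPM in mock replicate 1 against 4.86 to 4.96 CPM, and Nusap1 was 4.43 CPM in mock replicate 3 against 5.57 to 5.75 CPM.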

How the results depend on the processing

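All 25 alternatives to the main test called 0 genes in either direction. Their smallest adjusted p ran from 0.114, in the fit of the 9 transplanted libraries only, to 1, and genes at an unadjusted p under 0.05 numbered 166 to 783 higher and 87 to 800 lower. With the replicate block, 0 genes were higher and 0 lower, with 313 and 423 at an unadjusted p under 0.05. Same-numbered libraries correlated at 0.40, -0.04, 0.006 and -0.09 in their deviations, so the numbers were not taken to pair the samples. The test of a difference between batches called 4 genes in the 9 transplanted libraries alone, namely Kdm5d, Eif2s3y, Uty and Ddx3y, all Y-linked, and 0 otherwise. Of 2070 values of the 83 named genes under an alternative, 18 had the opposite sign and 0 were called. Gabra6 was at -0.15 without the batch term, at -0.57 with the region score and at -0.80 to 2.02 as each library was left out. Pcp2 was at -0.21, -0.12 and -0.25 to 1.95 in the same fits, and at -0.14 within batch B. H2-DMa, close to 0 throughout, was at 0.057 within batch A, 0.019 without the batch term, 0.12 with the choroid plexus score, 0.039 with voom weights and -0.16 to 0.085 as each library was left out. Ciita was at -0.39 within batch B and -0.024 with the choroid plexus score, and Slc6a5 at 0.069 within batch B. Xist stood at 0.699 to 3.72 CPM in mPPL-001. It was 1.19 and 1.21 CPM in mock replicates 2 and 3, and 809 and 623 CPM in mock replicates 1 and 4. Its log2 fold change was thus negative in the main fit. It was 0.55 within batch A and 0.83 with the Y-linked level as covariate. The causes of these reversals were not tested. Of 1250 list medians under an alternative, 65 had the opposite sign, and these fell in 29 of the 50 lists. Depth was similar in both groups. The spread between libraries and the uneven tissue and sex-linked content limit what could be detected, and with 3 against 2 and 2 against 2 libraries the within-batch values are imprecise.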
